A study of Mus musculus with 78 samples.

Results

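The comparison described here is that of carotid stenosis with a sham operation in fasted mice, 7 days after surgery. Its libraries were chosen by their treatment labels, BCAS7IF (4 libraries) and SHAM7IF (3 libraries), which make 7 of the 78 libraries of the series. All 7 came from cerebral arteries of male wild-type (WT) C57Bl6 mice. Both groups had fasted intermittently (IF) for 3 months and then had bilateral carotid artery stenosis (BCAS) or the sham procedure. In the rest of the series, mice of the same strain ate freely (ad libitum, AL) or fasted, had either operation, and were collected on day 1, 7, 14, 21 or 30. The text on treatment lists every day but 7, so the day of these libraries rests on the treatment label alone, and the design text counts 4 samples per group where the sham group here has 3. Of the fasting schedule, the hour of collection and the ages, the sources used here say nothing. Whether each library is its own animal is also not stated. The p-values here set a difference only against the scatter of libraries within the 20 groups of the series, which may be technical.

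BCAS narrows both common carotid arteries, so that blood reaches the brain at a lower pressure and flow over weeks. The arteries of the brain surface carry contractile smooth muscle and an endothelium that senses flow, and their wall is remodelled when flow changes. Fasting lowers insulin, and FoxO transcription factors, which insulin keeps out of the nucleus, then act on genes of metabolism and stress resistance. The values are FPKM, the fragments of a gene per kilobase of its length scaled to sequencing depth.

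Depth in the 7 libraries was 15421279 to 22358105 fragments, and 1 FPKM of a gene of 1 kb stood for 15.1 to 22.4 fragments. No measured marker of the 20 cell type lists was at 0 in all 7 libraries. The smooth muscle actin gene Acta2 was at 3073 to 4864 FPKM in sham and 2866 to 4323 FPKM in BCAS, and the tight junction gene Cldn5 of brain endothelium at 350 to 492 and 389 to 481 FPKM, so markers of the labelled artery were present. By their median correlation with the other libraries of the series, BCAS replicate 2 (0.967) ranked 3 and sham replicate 1 (0.972) ranked 5 of 78 from the lowest. The other 5 libraries ranked 18 to 62. Replicates are numbered in accession order, and no replicate numbers were shared in the labels, so nothing was paired.

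Few genes passed the threshold for a difference between stenosis and sham in fasted arteries on day 7. Of 15707 genes tested with limma, 24 passed an adjusted p of 0.05, or 0.153% of them, with 17 higher in BCAS (0.108%) and 7 lower (0.0446%). The rises included Acer2, a ceramidase gene, the drug- and lipid-oxidising enzyme genes Cyp4b1 and Fmo2, the thioredoxin-binding protein gene Txnip and the secreted protein gene Pi15. The falls included Smad6, an inhibitor of BMP signalling, the transferrin receptor gene Tfrc, the thyroid hormone receptor gene Thra and the neuropeptide gene Cck. Among the genes that passed, 22 were protein-coding, and their changes ran from 0.36 to 1.23 in size on the log2(FPKM + 1) scale. The ratio of the group means exceeded 1.5-fold in 16 of the 24 genes and 2-fold in 7. In all 22 protein-coding genes every BCAS library lay on one side of every sham library, as it did in 6.58% of all genes tested. The 22 genes were chosen by p-value from these same libraries, so this separation is a description and adds no support. At an unadjusted p under 0.05, 614 genes were higher (3.91%) and 568 lower (3.62%).

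**Figure D1:**
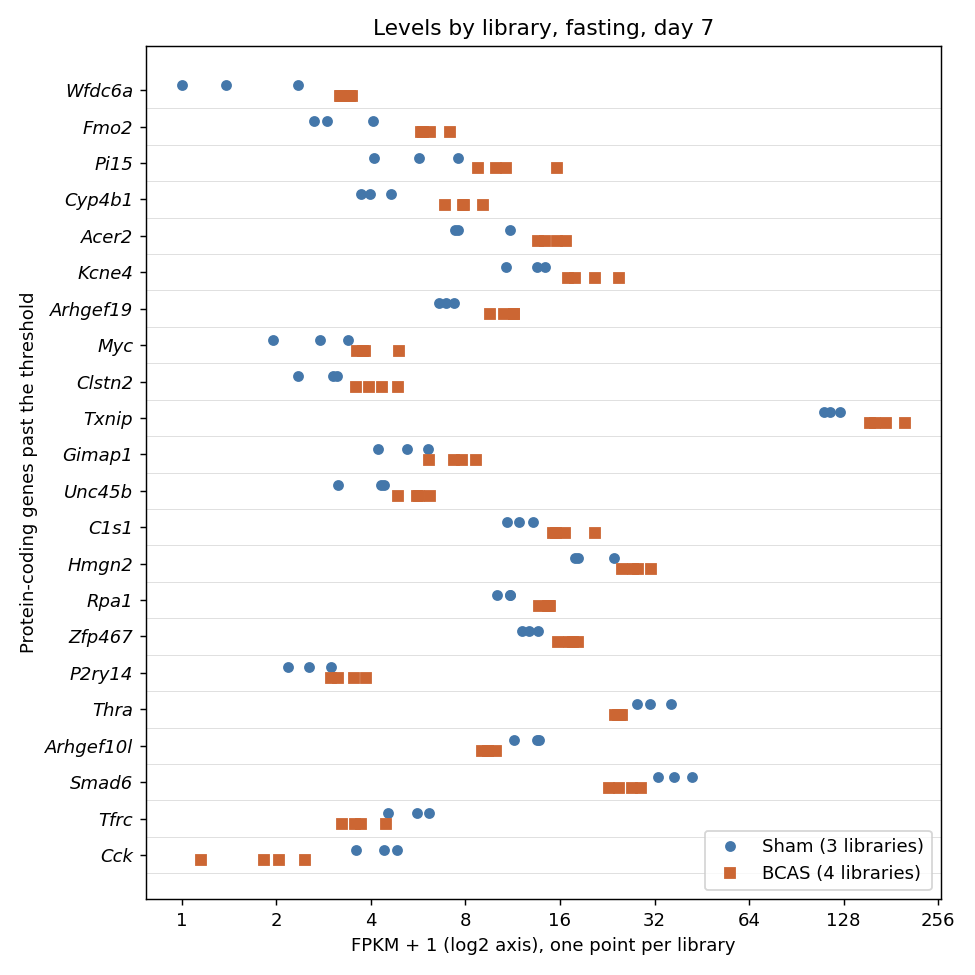
FPKM + 1 on a log2 axis for the 22 protein-coding genes that passed, with circles for the 3 sham libraries and squares for the 4 BCAS libraries of fasted mice on day 7. In every row the squares lie on one side of the circles, higher in 17 genes and lower in 5.

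Acer2, which encodes a Golgi ceramidase that turns ceramide into sphingosine, was at 6.42, 10.1 and 6.55 FPKM in sham replicates 1 to 3 and at 14.7, 15.7, 13.3 and 12.6 FPKM in BCAS replicates 1 to 4. Sham replicate 2 was the highest of its group and still below every BCAS library. Acer2 rose from 7.68 ± 2.1 (SD, n = 3) to 14.1 ± 1.4 FPKM (n = 4), a ratio of 1.83 and a log2 change of 0.82 ± 0.15 (SE, adjusted p = 0.00924). On GRCm38 the gene (ENSMUSG00000038007) lies on chromosome 4 at 86874396 to 86934822.

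Cyp4b1 encodes a cytochrome P450 that oxidises fatty acids and foreign compounds. Its levels were 3.65, 2.73 and 2.98 FPKM in sham and 5.86, 8.12, 6.87 and 6.89 FPKM in BCAS. The lowest BCAS library was above the highest sham library, and the gene rose 2.22-fold, by 0.95 ± 0.19 (adjusted p = 0.0141). Fmo2, a flavin-containing monooxygenase gene, was at 1.63, 3.07 and 1.9 FPKM in sham and at 6.15, 5.16, 4.87 and 4.77 FPKM in BCAS. It rose 2.38-fold, by 0.98 ± 0.21 (adjusted p = 0.0175). These were the 2 of 16 detoxifying enzyme genes that passed. The other 14 did not pass, and the median change of the list was 0.22, where that of all genes tested was 0.00. Cyp26b1, which breaks down retinoic acid, was at 9.74 to 15.5 FPKM in sham and 16.8 to 36.8 FPKM in BCAS (0.99 ± 0.34, adjusted p = 0.332). Aox1, an aldehyde oxidase gene, had a difference of 0.35 ± 0.11 and an adjusted p of 0.236. The retinoic acid synthesis gene Aldh1a2, by contrast in sign, was at 252 ± 19 FPKM in sham and 210 ± 27 FPKM in BCAS, a difference of -0.27 ± 0.12.

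Txnip encodes a protein that binds thioredoxin and restrains glucose uptake. It was at 110, 124 and 115 FPKM in sham and at 160, 199, 173 and 155 FPKM in BCAS, with every BCAS library above every sham library. It rose 1.48-fold, by 0.56 ± 0.11 (adjusted p = 0.0141). Txnip was the only member to pass of 18 FoxO and insulin-responsive genes, whose median was 0.06. Of the others, Sesn3, a stress-response gene, was at 2.21 ± 0.37 and 2.74 ± 0.21 FPKM (0.22 ± 0.09, adjusted p = 0.51). Foxo1 and Foxo3 themselves differed by 0.09 and 0.02.

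Pi15, a peptidase inhibitor of the CAP family, was at 3.09, 4.68 and 6.59 FPKM in sham and at 9.77, 9.01, 7.75 and 14.6 FPKM in BCAS. BCAS replicate 4 was the highest, and the groups did not overlap. The gene rose 2.15-fold, by 0.98 ± 0.22 (adjusted p = 0.038). It was 1 of 11 members of the CCN and CAP list to pass, and the list had a median of 0.02. Its CAP relative Crispld2 was at 75.5 to 108 FPKM in sham and 120 to 144 FPKM in BCAS, without overlap, and missed the threshold (0.52 ± 0.13, adjusted p = 0.0757). The CCN gene Wisp2 was at 15.7 to 30.3 and 22.5 to 47.8 FPKM (0.60 ± 0.27, adjusted p = 0.59).

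C1s1, the serine protease of the first complement component, was at 9.82, 10.8 and 12.1 FPKM in sham and at 14.6, 15.6, 14.2 and 19.7 FPKM in BCAS, and rose by 0.51 ± 0.11 (adjusted p = 0.0175). It was the only complement or acute-phase gene of 15 to pass. Its partner protease gene C1ra was at 19.3 ± 2.7 and 22.2 ± 2.7 FPKM, with a difference of 0.19 ± 0.09. The C1q genes C1qa, C1qb and C1qc, which macrophages express, differed by -0.05, 0.00 and -0.05. Wfdc6a, which encodes a small secreted protein with a WAP domain, was low throughout. It had 0, 5 and 25 fragments in sham and 47, 39, 44 and 43 in BCAS, or 0 to 1.35 and 2.19 to 2.47 FPKM, and rose by 1.17 ± 0.23 (adjusted p = 0.0141).

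Kcne4, an accessory subunit of voltage-gated potassium channels, was at 9.74, 12.5 and 13.3 FPKM in sham and at 19.8, 16.9, 16 and 23.7 FPKM in BCAS. Every BCAS library was above every sham library. Kcne4 rose 1.61-fold, by 0.64 ± 0.15 (adjusted p = 0.038). Unc45b, a chaperone of muscle myosin, was at 2.15, 3.3 and 3.39 FPKM in sham and at 4.6, 4.71, 3.86 and 5.18 FPKM in BCAS, and rose by 0.51 ± 0.10 (adjusted p = 0.0141). None of 14 contractile smooth muscle genes passed, and their median was 0.04. Their summed level was 6821 to 11032 FPKM in sham and 6873 to 10026 FPKM in BCAS. Of 20 ion channel genes of the artery wall none passed either. The nearest was Cacna1c, the pore of the L-type calcium channel, at 1.85 to 2.23 FPKM in sham and 2.71 to 3.51 FPKM in BCAS (0.38 ± 0.09, adjusted p = 0.0534).

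Myc, a transcription factor of growth, was at 2.38, 1.75 and 0.945 FPKM in sham and at 2.62, 2.76, 2.84 and 3.93 FPKM in BCAS. The groups did not overlap, BCAS replicate 4 was the highest, and sham replicate 1 was the highest sham library. Myc rose by 0.61 ± 0.14 (adjusted p = 0.0368). It was the only one of 24 immediate early genes to pass, and 17 of the 24 had a negative difference, with a median of -0.15. Apold1, an early gene of endothelium, was at 0.714 to 1.59 and 2.27 to 3.44 FPKM (0.92 ± 0.29, adjusted p = 0.27), and Egr2 at 1.21 to 2.37 and 0.804 to 0.933 FPKM (-0.51 ± 0.22). Rpa1, the large subunit of the protein that coats single-stranded DNA, was at 10.1, 10.1 and 9.04 FPKM in sham and at 13.8, 12.7, 13.9 and 13.7 FPKM in BCAS (0.44 ± 0.09, adjusted p = 0.0175). Hmgn2, a nucleosome-binding protein, was at 16.8, 17.3 and 22.7 FPKM in sham and at 24.2, 30.2, 26.4 and 27.3 FPKM in BCAS (0.50 ± 0.11, adjusted p = 0.0232). Both rose without overlap of the groups. None of the 8 tested cell cycle genes passed, and their median was 0.18.

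Other rises were those of Clstn2, a calsyntenin of the cell membrane, by 0.57 ± 0.12 (adjusted p = 0.0219), and of Gimap1, a GTPase gene of lymphocytes, by 0.54 ± 0.12 (adjusted p = 0.038). Gimap1 was at 3.2, 5.08 and 4.21 FPKM in sham and at 6.81, 7.66, 5.13 and 6.38 FPKM in BCAS. None of 6 tested lymphocyte markers passed, their median was -0.09, and their summed level was 22.0 to 36.8 FPKM in sham and 25.4 to 32.8 FPKM in BCAS. P2ry14, a receptor gene for UDP-sugars, and Zfp467, a zinc finger gene, rose by 0.40 ± 0.09 and 0.42 ± 0.10 (adjusted p = 0.038 for each). These last 2 genes were chosen after their values were seen. Some of the genes that rose overlap others, and the part of shared reads was not tested. Txnip shares 3927 bases with Gm15441 on the opposite strand (0.880 FPKM in sham and 0.495 FPKM in BCAS), Unc45b 8480 bases with Unc45bos on the opposite strand (0.492 and 1.19 FPKM), Gimap1 4742 bases with Gm28053 on the same strand (0.251 and 0.0482 FPKM), and P2ry14 lies within Med12l on the opposite strand.

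The falls began with an inhibitor of BMP signalling. In this pathway BMP ligands bind receptor kinases that phosphorylate receptor Smads, and Smad6 and Smad7 block that step. Smad6 was at 31.9, 41.0 and 35.9 FPKM in sham and at 27.9, 21.8, 23.6 and 26.1 FPKM in BCAS. Every BCAS library was below every sham library, and the gene fell, with a log2 change of -0.52 ± 0.12 (adjusted p = 0.0474). Of 25 TGF-β and BMP genes it was the only one to pass, the list had a median of -0.09, and 20 of the 25 differences were negative. The related inhibitors Smad7 (13.1 to 14.7 FPKM in sham and 8.89 to 12.3 FPKM in BCAS) and Skil (6.62 to 6.65 and 4.7 to 5.61 FPKM) did not overlap between groups and did not pass, with adjusted p values of 0.289 and 0.217. Id2, a target of BMP signalling, was at 50.3 to 59.7 and 39.1 to 43.5 FPKM (-0.42 ± 0.15, adjusted p = 0.406). The ligand and receptor genes Bmp2, Bmp4, Tgfb1, Tgfbr1 and Tgfbr2 differed by -0.01 to 0.01.

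Tfrc, the receptor that takes up iron-loaded transferrin and marks brain capillaries and immature red cells, was at 5.1, 3.52 and 4.59 FPKM in sham and at 2.57, 2.72, 2.22 and 3.48 FPKM in BCAS. Sham replicate 2 and BCAS replicate 4 nearly met, and the groups did not overlap. The gene fell, with a log2 change of -0.53 ± 0.11 (adjusted p = 0.0176). It was the 1 member of 10 venous and capillary endothelial markers that passed, and their median was -0.08. The glucose carrier Slc2a1, another transporter of the barrier, was at 46.2 to 87.6 FPKM in sham and 78.4 to 128 FPKM in BCAS, with overlap (0.65 ± 0.20, adjusted p = 0.217).

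Thra, the α receptor of thyroid hormone, was at 27.1, 30.1 and 35.2 FPKM in sham and at 23.8, 23.4, 22.9 and 24.3 FPKM in BCAS. The BCAS libraries lay close together and below all sham libraries, and Thra fell, with a log2 change of -0.36 ± 0.08 (adjusted p = 0.0466). It was the only one of 10 thyroid hormone genes to pass. Thra shares 1075 bases with the clock gene Nr1d1 on the opposite strand of chromosome 11. Nr1d1, the repressor REV-ERBα, was at 28.3, 40.5 and 58.2 FPKM in sham and at 17.3, 16.2, 16.9 and 24.6 FPKM in BCAS (-1.09 ± 0.27, adjusted p = 0.0746). The sources used here do not say whether the counting used strand, so reads from the shared stretch cannot be told apart. None of 14 core clock genes passed, their median was -0.20 and 9 of the 14 differences were negative. At an unadjusted p under 0.05 in limma, 4 of them were higher and 3 lower. Cry1, which REV-ERBα represses, was at 3.63 to 6.32 and 6.12 to 8.03 FPKM, with overlap (0.50 ± 0.17), and Per3 at 6.97 to 8.96 and 9.6 to 11.3 FPKM (0.33 ± 0.13), with adjusted p values of 0.289 and 0.442. The hour of collection in each group was not given.

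Cck, the cholecystokinin gene of neurons, was at 2.59, 3.39 and 3.83 FPKM in sham and at 0.824, 1.05, 0.149 and 1.47 FPKM in BCAS. BCAS replicate 3 had 4 fragments of it. Cck fell, with a log2 change of -1.23 ± 0.28 (adjusted p = 0.038) and sham 3.75-fold above BCAS by the ratio of means. In freely fed mice its difference was -0.63, -0.83, -0.52, -0.33 and -0.78 on days 1, 7, 14, 21 and 30. On fasted days 1, 14, 21 and 30 it was -0.10, -0.25, 0.003 and -0.68. Of 8 tested neuropeptide genes it was the only one to pass. Oxt was at 20.6 to 52.6 FPKM in sham and 1.83 to 28.5 FPKM in BCAS, and Avp at 69.5 to 122 and 8.96 to 97.0 FPKM. Both are hypothalamic hormone genes, and in both BCAS replicate 2 reached the sham range. None of 13 tested neuron markers passed. Their median was -0.09 and their summed level 41.5 to 45.0 FPKM in sham and 33.5 to 49.8 FPKM in BCAS. The part of brain tissue on the artery in the fall of Cck was not tested.

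Both noncoding genes that passed were lower in BCAS and were chosen after their values were seen. Gm10925 is an unprocessed pseudogene of 678 bases on chromosome 1, at 24613974 to 24614651, that resembles mitochondrial DNA, and its reads cannot be told apart with certainty from those of its mitochondrial copy. It was at 141, 703 and 317 FPKM in sham and at 103, 108, 133 and 105 FPKM in BCAS (-1.49 ± 0.24, adjusted p = 0.000913). Without sham replicate 2 the difference was -0.92 and the gene no longer passed (adjusted p = 0.0825). All 13 protein-coding genes of the mitochondrial genome had negative differences, none passed, and their median was -0.26. Mitochondrial genes took 6.60% to 7.54% of fragments in sham and 5.90% to 6.42% in BCAS, and their part in the value of Gm10925 was not tested. Mir7240, a gene of 58 bases inside Mast3, had 4, 0 and 3 fragments in sham and 1, 0, 0 and 0 in BCAS, and is not read further.

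Promoter sequences are shown for Txnip and Rpa1, which rose, and for Cck, which fell, since these windows hold the motifs most often found among the genes that passed. RefSeq windows (GRCm38.p6) were found for 19 of the 22 protein-coding genes that passed. The 250 bases before each start were searched on both strands for the FoxO site GTAAACA (reverse complement TGTTTAC), the E-box CACGTG, the CRE TGACGTCA, the D-box TTATGTAA and the Smad palindrome GTCTAGAC. The motifs do not overlap one another in the windows printed, where capitals mark the FoxO site in Txnip, the E-box in Rpa1 and both in Cck.
Txnip, chr3:96557707-96557956, plus strand: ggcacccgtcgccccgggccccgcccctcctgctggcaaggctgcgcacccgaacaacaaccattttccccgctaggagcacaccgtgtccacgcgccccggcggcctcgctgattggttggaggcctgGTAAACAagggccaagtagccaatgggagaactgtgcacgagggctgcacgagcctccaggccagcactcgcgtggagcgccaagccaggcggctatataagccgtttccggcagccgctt
Rpa1, chr11:75348384-75348633, minus strand: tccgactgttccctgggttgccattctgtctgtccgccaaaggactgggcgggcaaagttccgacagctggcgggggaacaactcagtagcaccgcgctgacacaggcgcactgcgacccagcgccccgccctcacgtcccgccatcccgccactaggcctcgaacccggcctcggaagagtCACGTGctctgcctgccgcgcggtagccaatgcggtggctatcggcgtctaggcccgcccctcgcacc
Cck, chr9:121495695-121495944, minus strand: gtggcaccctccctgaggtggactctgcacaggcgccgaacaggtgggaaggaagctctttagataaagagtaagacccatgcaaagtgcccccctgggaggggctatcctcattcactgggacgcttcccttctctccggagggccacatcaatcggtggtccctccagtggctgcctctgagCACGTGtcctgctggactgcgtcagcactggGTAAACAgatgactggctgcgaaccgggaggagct
The FoxO site began 121 bases before the start of Txnip and 35 bases before that of Cck, which moved in opposite directions. It was in windows of 4 of the 19 genes (Txnip, Fmo2, P2ry14 and Cck), and in 3.17% of all 32851 windows or 2.69% of the 10237 tested genes with a window. The E-box was in 5 of 19 (Unc45b, Rpa1, Hmgn2, Kcne4 and Cck), and in 6.02% of windows or 9.66% of tested genes. The CRE was in Clstn2 only, and in 1.55% of windows or 2.94% of tested genes. The D-box (0.819% of windows, 0.586% of tested genes) and the Smad palindrome (0.167% and 0.234%) were in none of the 19. A match describes letters and shows no binding.

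Among the lists of genes, 10 of 67 held a gene that passed, and 14 of the 24 genes were in no list. Tfrc was the gene that passed in both the venous and capillary endothelial list and the barrier transporter list. The share of all genes tested that were in a list was not counted. Of the 20 cell type lists, 1 held such a gene. The 15 endothelial markers had a median of 0.15 and none passed. Tie1, a receptor of endothelium, was at 24.5 to 27.4 FPKM in sham and 32.3 to 35.2 FPKM in BCAS (0.36 ± 0.14, adjusted p = 0.462), and the transcription factor gene Erg at 9.46 to 9.67 and 11.7 to 15.6 FPKM (0.38 ± 0.11, adjusted p = 0.154). The summed endothelial level was 761 FPKM in sham replicate 1 and 926 and 970 FPKM in the other sham libraries, against 921 to 991 FPKM in BCAS. None of 12 arterial endothelial markers passed, their median was 0.14 and 3 of their differences were negative. The highest difference among them was that of Gkn3, at 182 to 218 and 270 to 355 FPKM (0.76 ± 0.30, adjusted p = 0.491). In arteries taken whole, fewer cells of a type and less RNA per cell cannot be told apart.

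**Figure D2:**
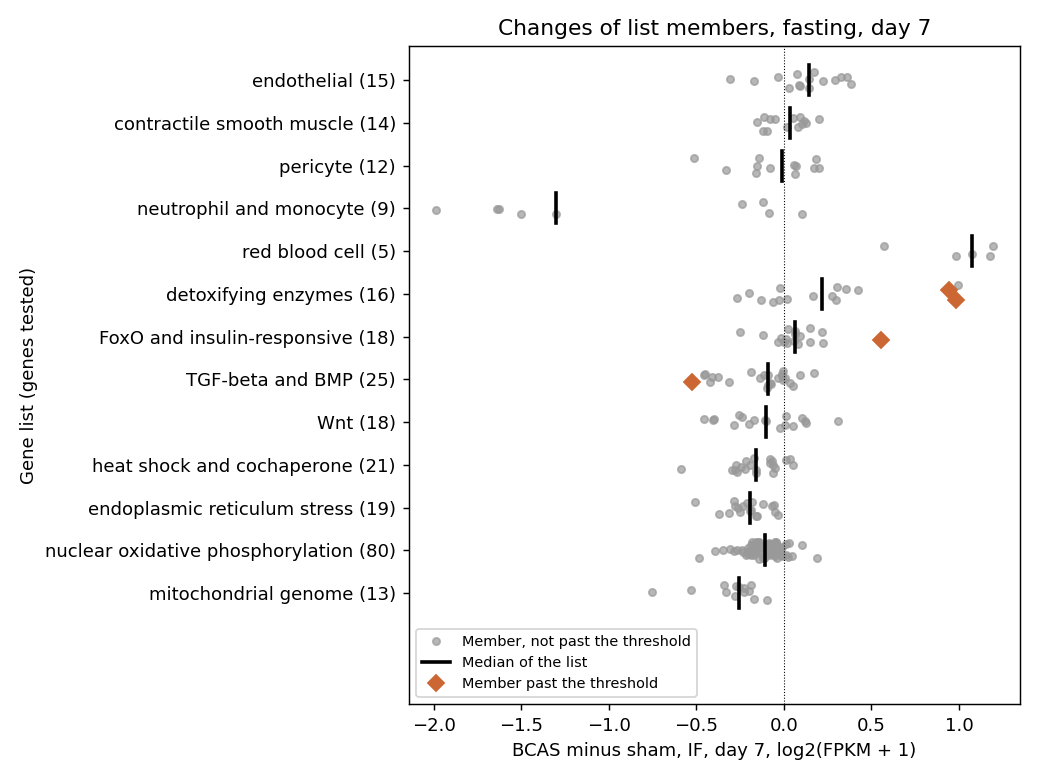
Difference of BCAS and sham (log2(FPKM + 1), fasted mice, day 7) for each tested member of 13 gene lists, with grey circles for members that did not pass, diamonds for those that did and a black bar at the median. Only the detoxifying, FoxO and TGF-β lists hold a diamond, and the neutrophil list sits to the left with a median of -1.30.

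Neutrophil and monocyte markers had the lowest median of the lists named here, -1.30 over 9 tested genes, and none passed. S100a9, a gene of neutrophils and monocytes, was at 20.3, 49.5 and 40.2 FPKM in sham and at 10.3, 10.7, 6.45 and 5.47 FPKM in BCAS (-1.98 ± 0.67, adjusted p = 0.315). Camp (4.72 to 10.6 FPKM in sham and 1.22 to 2.31 FPKM in BCAS), Ngp (6.05 to 15.9 and 2.16 to 3.93 FPKM) and Retnlg (1.9 to 7.03 and 0.301 to 1.81 FPKM) also did not overlap. Camp, Ngp and Retnlg code for granule or secreted proteins of neutrophils. The monocyte genes Ly6c2 and Ccr2 differed by -0.09 and -0.12. The summed level of the list was 47.0 to 117 FPKM in sham and 22.0 to 28.7 FPKM in BCAS, and a median of 35.03 FPKM over the other 71 libraries. Lcn2, an acute-phase gene that neutrophils carry, was at 193 FPKM in sham replicate 2 and between 2.88 and 11.5 FPKM in the other 6 libraries. Its difference was -1.35 with all 7 libraries and 0.26 without sham replicate 2.

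Red blood cell genes differed by a median of 1.08 without any passing. Their summed level was 124 to 156 FPKM in sham and 128 and 154 FPKM in BCAS replicates 1 and 2, but 1098 and 383 FPKM in BCAS replicates 3 and 4. Pituitary genes ran from 13.02 to 407 FPKM in sham and 26.2 to 691 FPKM in BCAS. The ranges of the groups overlapped in both lists, and the part of blood, neutrophils and pituitary tissue in the genes named above was not tested.

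None of the genes of endoplasmic reticulum stress, heat shock or nuclear oxidative phosphorylation passed. Over all genes tested, 49.6% of differences were negative. All 19 genes of endoplasmic reticulum stress had a negative difference, with a median of -0.20, and their summed level was 991 to 1210 FPKM in sham and 862 to 1105 FPKM in BCAS. Xbp1, a transcription factor of that response, was at 52.7 to 56.3 FPKM in sham and 43.1 to 51.7 FPKM in BCAS. Of 21 heat shock and cochaperone genes 18 were negative, with a median of -0.16 and summed levels of 1834 to 2297 and 1691 to 1892 FPKM. Hsph1, a large chaperone of the Hsp70 family, was at 13.9 to 15.8 and 8.37 to 10.6 FPKM (-0.59 ± 0.20, adjusted p = 0.35). Of 80 nuclear genes of oxidative phosphorylation 73 were negative, with a median of -0.11 and summed levels of 8474 to 12411 and 8812 to 11609 FPKM. The summed levels of the groups overlapped in all 3 lists. Members of a list were measured in the same libraries, so such counts are not independent observations.

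Matrix and Wnt genes likewise did not pass. Eln, the elastin gene, was at 145 to 184 FPKM in sham and 109 to 142 FPKM in BCAS (-0.40 ± 0.15, adjusted p = 0.442). Wnt4 was at 56.9 to 64.6 and 38.0 to 48.6 FPKM (-0.41 ± 0.13, adjusted p = 0.249). The summed level of 21 Wnt genes was 425 to 450 FPKM in sham and 363 to 386 FPKM in BCAS. Nampt, which makes a precursor of NAD, was at 21.5 to 24.8 and 28.2 to 30.7 FPKM (0.37 ± 0.10, adjusted p = 0.0982). Ptp4a3, a protein phosphatase gene, was at 15.02 to 23.2 and 25.5 to 32.5 FPKM (0.58 ± 0.15, adjusted p = 0.0859). Of the inflammatory and flow genes of the panel, Il1b, Icam1, Vcam1, Edn1 and Vegfa differed by 0.04, 0.02, -0.04, 0.01 and -0.01, and Nos3 and Klf2 by -0.09 and 0.26, and none passed.

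The same 24 genes were then followed in the other groups. In freely fed mice on day 7, where 413 of the tested genes passed (2.63%), 19 of the 24 had the same sign, 4 the opposite sign and Mir7240 no difference. Hmgn2 alone of them passed there (0.38, adjusted p = 0.032). Freely fed sham replicates 2 and 4 were rich in fragments of genes under 300 bases (0.282% and 0.322%). The count of 413 was not repeated without them. In the mean of the other 4 days under fasting, where 23 genes passed (0.146%), 23 of the 24 had the same sign, and Gimap1 (0.26) and Pi15 (0.51) passed. The share of all genes tested that kept their sign in these comparisons was not counted. The median size of the 24 differences was 0.56 on day 7 under fasting. It was 0.13 in freely fed mice on day 7 and 0.14 over the other fasted days. In freely fed mice on day 14 the median size was 0.27, and 19 of the 24 had the same sign. There Pi15 (1.17), Kcne4 (0.68) and Clstn2 (0.59) differed more than on day 7 under fasting. On freely fed days 1, 21 and 30 no gene did, and 15, 15 and 16 of the 24 had the same sign. The genes were chosen for their change on day 7 under fasting, so the mostly smaller sizes elsewhere are a description.

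**Figure D3:**
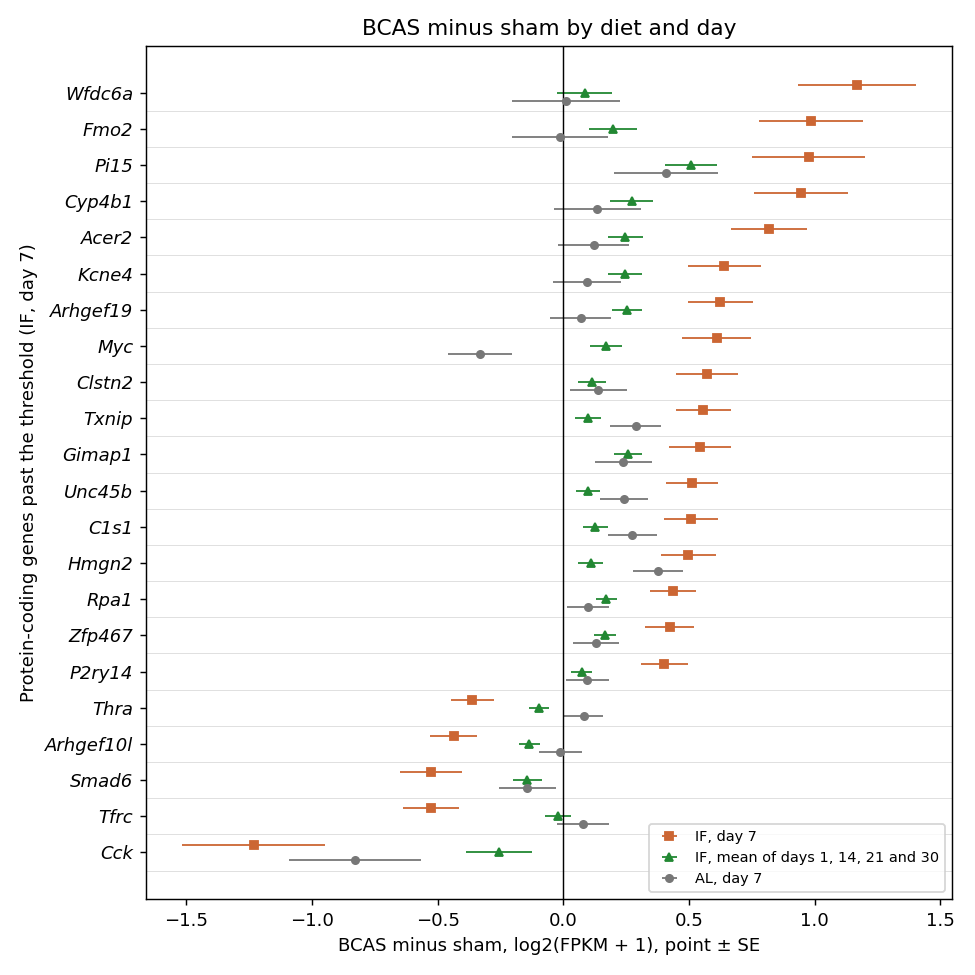
Difference of BCAS and sham (log2(FPKM + 1), point ± SE) for the 22 protein-coding genes that passed, in fasted mice on day 7 (squares), in fasted mice over days 1, 14, 21 and 30 (triangles) and in freely fed mice on day 7 (circles). Squares lie farther from 0 than the other symbols in all 22 rows.

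By day under fasting, 12 of the 24 genes had the day 7 sign on all 4 other days, 8 on 3 days, 2 on 2 days and 2 on 1 day. Acer2 differed by 0.26, 0.28, 0.02 and 0.42 on days 1, 14, 21 and 30, Pi15 by 0.55, 0.37, 0.35 and 0.77, and Smad6 by -0.02, -0.07, -0.09 and -0.40. On day 1 the sign was shared by 16 of the 24, with a median size of 0.12, and on day 30 by 22, with a median size of 0.28. Nr1d1 differed by -0.15, 0.04, -0.15 and 0.09 on those days, and S100a9 by -0.65, 0.27, -0.18 and 0.21. The test of day 7 against the mean of the other fasted days called 1 gene (0.00637%), Gm10925. It lost this call without sham replicate 2, when 2 other genes were called.

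**Figure D4:**
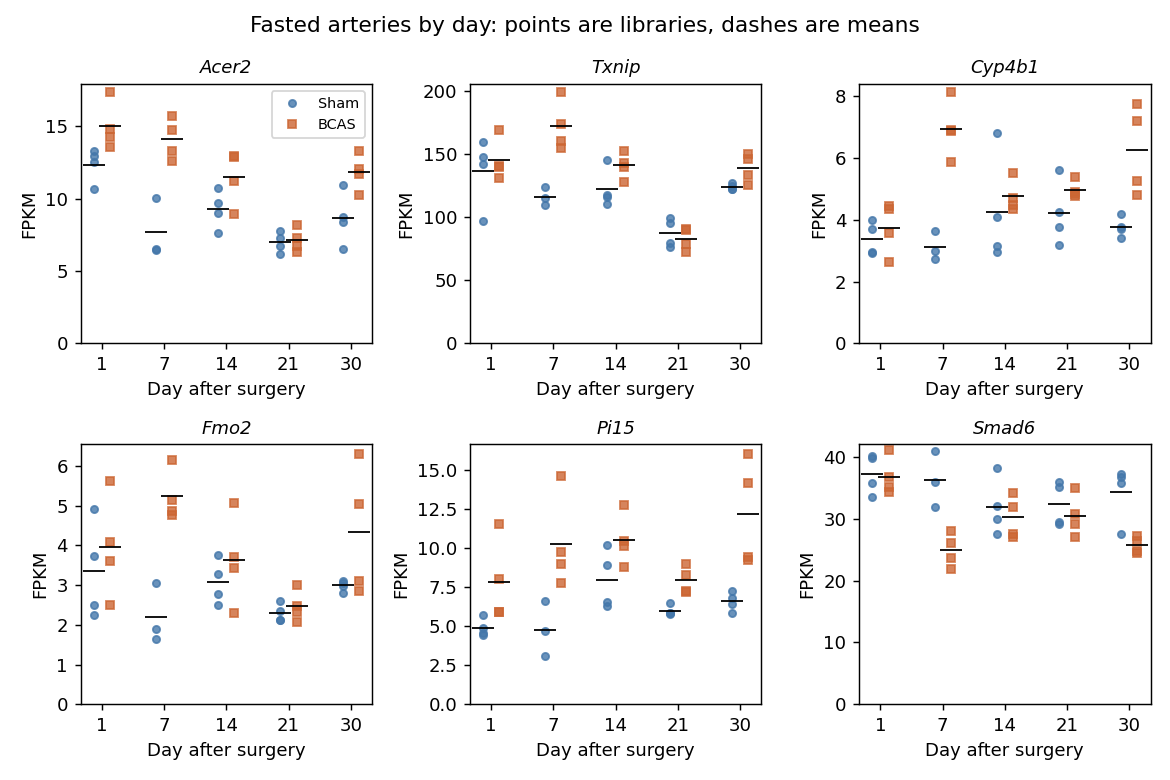
FPKM of 6 genes in each fasted library by day after surgery, with circles for sham, squares for BCAS and dashes for means. On day 7 the squares of Acer2, Txnip, Cyp4b1, Fmo2 and Pi15 lie above all circles and those of Smad6 below them.

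The test of the difference between diets on day 7 called 5 genes (0.0318%), all with a higher BCAS effect under fasting. That direction rested on the libraries: without freely fed sham replicate 1 there were 312 genes, 96 higher and 216 lower, and without fasted sham replicate 1 there were 233, 76 higher and 157 lower. All 5 genes were among the calls in both fits, and 2 of the 5 without fasted sham replicate 2 or 3. Myc was the only one that also passed in fasted mice. It was at 1.69 ± 0.72 and 3.04 ± 0.6 FPKM in fasted sham and BCAS, and at 2.67 ± 0.353 and 1.92 ± 0.272 FPKM in freely fed sham and BCAS, a difference of effects of 0.94 ± 0.19 (adjusted p = 0.0237). Cdc73, a subunit of a transcription elongation complex, and Dync1li2, a dynein subunit, had differences of 0.39 ± 0.07 and 0.42 ± 0.09. The nuclear RNA Malat1 (2.07 ± 0.24) and the ribosomal RNA gene CT010467.1 (3.55 ± 0.75), both chosen after their values were seen, were high in freely fed sham, at 69.4 ± 15.6 and 730 ± 616 FPKM. Freely fed sham replicates 2 and 4 were 2 of the 3 libraries of the series rich in fragments of genes under 300 bases. Without those 3 libraries 4 genes were called, 1 of them among the 5.

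Single libraries decided many calls. Without BCAS replicate 2 only Gm10925 passed, and without sham replicate 1 there were 5 genes, 4 of them among the 24. The counts were 12, 20 and 10 without BCAS replicates 1, 3 and 4, and 12 and 19 without sham replicates 2 and 3. Each of the 24 genes lost its call without at least 1 of the 7 libraries, and all that were tested kept their sign. Acer2 lost its call without BCAS replicate 2 and without sham replicates 1 and 3, with changes between 0.72 and 1.01 over the 7 fits and an adjusted p of up to 0.082. Txnip (0.48 to 0.61, up to 0.082) and Cyp4b1 (0.88 to 1.04, up to 0.0801) each lost it without 2 libraries, BCAS replicate 2 and a sham library, and Smad6 (-0.61 to -0.43, up to 0.287) lost it without each of the 7 in turn. In a fit of the 7 libraries alone limma called 0 genes, with 898 at an unadjusted p under 0.05, while limma-voom on fragments in all libraries called 42, of which 40 were higher and 2 lower.

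**Figure D5:**
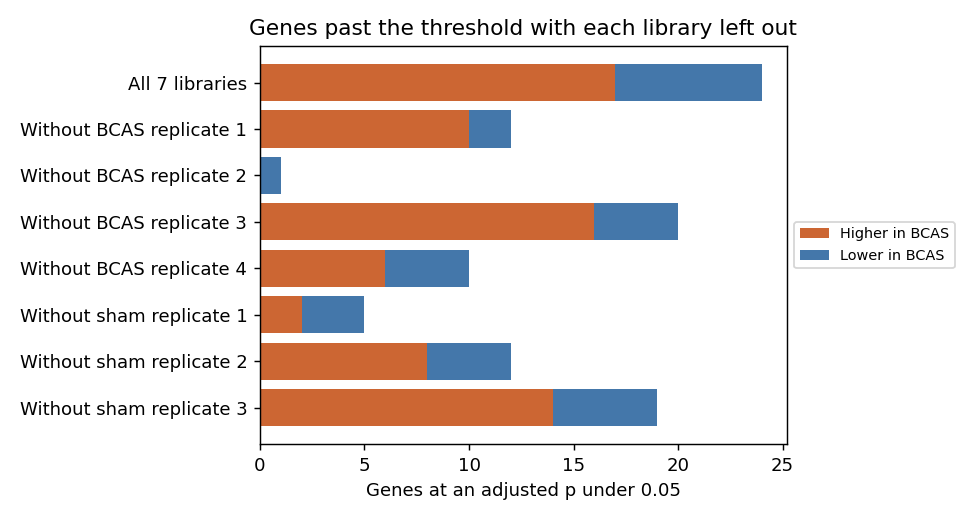
Number of genes at an adjusted p under 0.05 with all 7 libraries and with each left out in turn, in 2 colours for genes higher and lower in BCAS. The bar is 24 with all libraries and 1 without BCAS replicate 2.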

How the data were processed

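RNA sequencing libraries of mouse cerebral arteries were compared as the treatment labels group them. Per the file headers, the authors deposited FPKM, with gene lengths in bases, in 1 table of 54532 genes. Novogene built the libraries from RNeasy-extracted RNA, per the labels' protocols. The submitters' processing notes list DESeq 1.10.1 but give it no role. Aligner, counter, strand setting, build and annotation are not given in the sources used here. GENCODE M21 held 54495 of the identifiers, with 98.3% at the same coordinates, so positions are on GRCm38. FPKM times length gave whole fragments within 0.05 for 100% of values under 1000 fragments in every library, which gave the depth.

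A gene was tested where 3 or more of the 78 libraries reached 1 FPKM (15707 genes). In R 4.3.3, limma 3.58.1 with statmod 1.5.0 was run with its trend and robust options on log2(FPKM + 1) fitting 20 group means that share 1 estimate of the spread. This scale understates the change of low genes. Two-sided p-values received the Benjamini-Hochberg adjustment across the 15707 genes, with a threshold of 0.05. Errors of log2 changes are standard errors, and other errors are SD. The steps were tested on simulated data. With 4 against 3 libraries an exact permutation test of 1 gene cannot go below 0.0571, so none was used.

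Named genes were protein-coding: the 15 largest rises and falls past the threshold with a mean of 1 FPKM in either group and no overlap, up to 5 genes in each direction with the smallest p in the tests between diets and between days, the 4 members of each list that had the lowest p, and a panel. Foxo1, Foxo3, C1qa, C1qb, C1qc, Bmp2, Bmp4, Tgfb1, Tgfbr1, Tgfbr2, Ly6c2 and Ccr2 fall outside the rule and were chosen after their values were seen. The members, lists and panel were chosen with earlier results of these data known. Alternatives were another pseudocount (0.1), other filters, median-ratio scaling, fits of only the compared groups, limma-voom on fragments, no trend and robust options, and libraries left out. Promoter sequences came from RefSeq (GRCm38.p6). No other columns held values per sample. Some of the genes that passed are not reported here by name.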

Additional observations from a re-analysis of the deposited data

Results flagged for a closer look

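Among the 24 genes that passed, 3 had a library apart from the other 3 BCAS libraries of fasted mice on day 7 by the ratio of its gap to the range. Myc reached 3.93 FPKM in BCAS replicate 4, where the others were at 2.62 to 2.84 FPKM. Rpa1 was lowest in BCAS replicate 2, at 12.7 FPKM, where the others were at 13.7 to 13.9 FPKM. Mir7240 was at 0.773 FPKM in BCAS replicate 1, which is 1 fragment, and at 0 in the others. Chance flags about 1 in 20 groups.

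The effect of BCAS on day 7 differed between fasted and freely fed mice for 5 genes. The differences of the log2 changes were 3.55 for CT010467.1, 2.07 for Malat1, 0.94 for Myc, 0.42 for Dync1li2 and 0.39 for Cdc73. In fasted mice CT010467.1 was at 37.7 to 63.1 FPKM in sham and 27.4 to 48.1 FPKM in BCAS, and Malat1 at 17.7 to 24.1 and 17.1 to 39.7 FPKM, so both groups overlapped there. For Gm10925 the day 7 effect under fasting differed from its mean on the other fasted days by -1.51, with sham replicate 2 at 703 FPKM against 107 to 159 FPKM in sham libraries of the other fasted days.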

How the results depend on the processing

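The 24 genes called on day 7 under fasting became 142 without a filter on low values (44 higher, 98 lower), 42 with limma-voom (40 higher, 2 lower; 18 of the 24 among them; the median of all genes moved by 0.07) and 0 by limma in a fit of only the compared groups (898 at an unadjusted p under 0.05). With the pseudocount of 0.1, the strict filter, median-ratio scaling, no trend and robust options, or without the 3 libraries rich in short-gene fragments, the count was 21 to 29. Leaving out each library gave 1 to 20 genes. The 5 genes of the difference between diets became 19 without a filter, 9 with limma-voom and 0 by limma in a fit of only the compared groups (885 unadjusted), and 1 to 312 with a library left out, 312 without freely fed sham replicate 1 (96 higher, 216 lower), 233 without fasted sham replicate 1 (76 higher, 157 lower), 17 without freely fed sham replicate 3, 11 without fasted BCAS replicate 2, and 1 to 6 without any other. The 1 gene of the difference between days became 11 without a filter and 0 by limma in a fit of only the compared groups (975 unadjusted; limma-voom in all libraries 1), and 1 to 4 with a library left out. Fits of fewer libraries have fewer degrees of freedom, and the cause of the other shifts was not tested. None of the 24 genes changed sign in the settings where it was tested, but 31 of the 285 genes followed through the settings did in at least 1, among them Lcn2, Cldn5, Vcam1, Il1b, Icam1, Vegfa and Edn1, none of which passed. No paired analysis was possible because the labels share no replicate numbers between groups. Depth limits the low genes: 1 FPKM of a gene of 1 kb was 15.1 fragments in sham replicate 2.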
